A study of Mus musculus with 8 samples.

Results

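The genes described here are 42 genes of DNA replication and S phase, taken by symbol from a fixed list and matched to mouse Ensembl identifiers in the deposited count tables. All 42 were found among the 27318 genes of the tables. The cells were single LSK cells, the bone marrow fraction positive for Sca1 and cKit where blood stem cells and their first progeny are found. They came from C57BL/6 mice aged 8 to 16 weeks that carried the Dach1bio-GFP locus, derived from a single targeted embryonic stem cell clone, in which a biotin tag ends the Dach1 protein and GFP is made from the same transcript through an IRES. No treatment was given, and marrow was enriched for CD117 (cKit) on magnetic beads before sorting. Each well of a 384-well plate received 1 index-sorted cell, so that its surface marker and scatter values were recorded, and its RNA was read by CEL-seq2, which counts the 3' ends of polyadenylated RNA. The 8 plates formed a set of 4 named LCE (LCE407 to LCE410) and a set of 4 named LC (LC187 to LC190), and forward scatter and CD48 were used on the LCE plates alone. The labels do not say what sets the plate sets apart or which animals filled a plate, so every p-value measures plate-to-plate spread, part of which may be technical.

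DNA replication begins with licensing in G1, when the origin recognition complex, Cdc6 and Cdt1 load the Mcm2 to Mcm7 helicase onto origins. Cdc45, the GINS complex and Mcm10 then turn the loaded helicase into a moving fork. DNA polymerase alpha with primase starts each strand, Rfc loads the Pcna sliding clamp, Rpa coats single-stranded DNA, polymerases delta and epsilon extend, and Fen1 and Lig1 join the lagging strand. Ribonucleotide reductase, thymidylate synthase, thymidine kinase and dUTPase supply nucleotides, while Chaf1a and Chaf1b place histones on new DNA and Slbp binds histone mRNA. Many of these genes are transcribed by E2F factors at the entry to S phase. In adult marrow most blood stem cells rest outside the cell cycle, whereas many progenitors divide.

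In total 2720 cells passed the filters, 1360 on the LCE plates and 1360 on the LC plates. The median number of counts per cell lay between 5662 and 7525 on the LCE plates and between 11586 and 13398 on the LC plates. The 42 genes made up 0.363% of all counts, and no kept well lacked a count for all of them. The plate median of their summed share per well averaged 0.299% ± 0.0611 (SD, n = 8 plates), with 0.209% to 0.269% on LCE plates and 0.340% to 0.368% on LC plates. Kit, Ly6a, Cd34, Flt3 and Ptprc, taken as markers of the LSK gate, all had counts and made 0.0968% of the total. Among the kept cells 126 carried RNA of other lineages, 120 of them by at least 5 counts of B-lineage genes. A sum of counts cannot tell more cells with a gene's RNA from more RNA per cell.

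Because E2F sites are the shared feature for which these genes are known, the promoters of the members were searched for the words TTTGGCGC, TTTCCCGC, TTTGCCGC and TTTCGCGC on both strands. The windows ran from 250 bases before to 50 bases after each gene's start and came from a table of RefSeq promoters on GRCm38.p6, in which 35 of the 42 genes were matched. Gins1, Gins2, Gins4, Mcm4, Pole, Prim2 and Rfc2 were not matched. A gene counted as a match if any of its promoters held a word, since 32851 promoters were listed for 27025 genes. This was so for 13 of 35 members (37.1%), against 704 of all 27025 genes (2.60%). A word was found for 8 of 13 other G1/S regulators and for 1 of 22 G2 and mitosis genes. The following stretches of 90 bases, each upstream of the start and written 5′ to 3′ on the gene's strand, show the word in 4 genes of licensing and strand initiation, with the matched bases in capitals. In Mcm5 overlapping words form 1 longer run.
Pola1: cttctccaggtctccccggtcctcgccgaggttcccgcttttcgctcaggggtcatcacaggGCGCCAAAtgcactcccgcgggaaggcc
Cdc6: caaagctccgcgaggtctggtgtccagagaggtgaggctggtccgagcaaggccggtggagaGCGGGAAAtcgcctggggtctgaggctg
Mcm5: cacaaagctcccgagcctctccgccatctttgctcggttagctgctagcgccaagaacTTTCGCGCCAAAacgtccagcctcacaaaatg
Mcm7: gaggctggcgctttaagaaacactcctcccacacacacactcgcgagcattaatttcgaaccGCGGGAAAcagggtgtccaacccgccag
These lie at chrX:93632266-93632355 on the minus strand (Pola1), chr11:98907951-98908040 on the plus strand (Cdc6), chr8:75109298-75109387 on the plus strand (Mcm5) and chr5:138172021-138172110 on the minus strand (Mcm7).

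For contrast, genes of mitosis are known for a different pair of promoter words, the CHR word (searched as TTTGAA and TTCGAA) and the CCAAT box (searched as CCAAT), both on either strand. By the same count, the CHR word was found for 17 of 22 mitosis genes (77.3%), against 7 of 35 members (20%) and 21.7% of all genes. CCAAT was found for 20 of 22 mitosis genes, 22 of 35 members and 41.1% of all genes. Ube2c and Cdc20, which act in the destruction of mitotic proteins, show both words in capitals. They lie at chr2:164769836-164769925 on the plus strand and chr4:118437344-118437433 on the minus strand.
Ube2c: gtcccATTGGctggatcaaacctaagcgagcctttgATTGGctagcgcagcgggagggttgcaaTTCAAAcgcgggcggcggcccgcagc
Cdc20: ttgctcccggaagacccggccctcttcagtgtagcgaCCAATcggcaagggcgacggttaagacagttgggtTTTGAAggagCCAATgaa
A match is a run of letters and not a measured binding site.

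The members differed widely in level. Values are counts per 1000000 gene counts (CPM) of 3' ends, which were not divided by gene length, and each is the mean over 8 plates ± SD. Pcna stood at 419 ± 44.4 CPM and had a count in 88.5% of wells. Mcm6 followed at 229 ± 34.5 CPM and Mcm7 at 204 ± 33.4 CPM. At the low end, Orc1, the largest subunit of the origin recognition complex, stood at 7.43 ± 3.76 CPM and had a count in 6.21% of wells. Gins3 stood at 12.9 ± 3.51 CPM. The processed pseudogene Pcna-ps2 is listed as a gene of its own at 147 CPM, so the division of counts between it and Pcna is uncertain.

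By role, the 10 licensing genes summed to 1067 CPM and held 30.9% of member counts, the 8 genes of the clamp, its loader and single-strand binding 24.7%, and the 5 genes of nucleotide supply 15.3%. The 6 helicase activators summed to 186 CPM, each between 12.9 and 42.1 CPM. Rrm2, the regulatory subunit of ribonucleotide reductase, averaged 69.2 CPM on LCE plates and 141 CPM on LC plates. Pole and Rpa1 were close between the plate sets, at 40.0 and 54.6 CPM on LCE plates and 43.9 and 55.0 CPM on LC plates. The depth and every other property of the sets differ together, so these level differences were not tested.

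Forward scatter, a measure of cell size, separated the members most. Within each LCE plate the cells in the highest tercile of forward scatter were set against those in the lowest tercile, with counts summed per plate and tercile. In the large cells 35 of 40 members tested were higher and none was lower, also at an unadjusted p under 0.05 (edgeR quasi-likelihood test with Benjamini-Hochberg adjustment over all genes tested). Over all genes, 11.2% were higher and 6.68% lower. The median log2 difference of the members was 0.94, against -0.01 over all genes. In 31 of 42 members the 4 values of large cells did not overlap the 4 of small cells, and 36 were higher on every plate. These counts were made for the members alone, without a share over all genes to set beside them. Log2 differences below carry their standard error after ±, and adjusted p-values come from the same edgeR test.

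All 9 licensing genes tested rose in large cells, by 0.55 (Mcm6) to 1.20 (Cdc6) on the log2 scale. Mcm5, a subunit of the helicase ring, had 122, 117, 147 and 132 CPM in large cells of LCE407, LCE408, LCE409 and LCE410, against 44.1, 66.7, 48.6 and 109 CPM in small cells of the same plates. Its groups did not overlap, although plate LCE410 came close, and the log2 difference was 1.05 ± 0.14 (adjusted p = 1.55e-08). Mcm2 had 98.6, 107, 93.0 and 99.0 CPM in large cells, against 45.8, 61.5, 76.9 and 74.4 CPM in small cells. The large cells were again above every small-cell value, with a log2 difference of 0.66 ± 0.14 (adjusted p = 0.000284). With DESeq2 Mcm2 did not pass (0.67, adjusted p = 0.0533). Orc1, the tenth gene of the group, was too low to be tested.

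Among the helicase activators, Mcm10, Cdc45 and Gins2 rose, while Gins1 (0.48 ± 0.22, adjusted p = 0.115) and Gins4 (0.20 ± 0.22, adjusted p = 0.591) did not pass the test and Gins3 was too low to be tested. Mcm10, which helps the helicase leave the origin, had 33.2, 29.8, 17.6 and 31.3 CPM in large cells, against 6.78, 6.84, 12.1 and 12.7 CPM in small cells. Every large-cell value lay above every small-cell value, and the log2 difference was 1.53 ± 0.31 (adjusted p = 9.06e-05). This rests on 115 counts in large cells and 24 in small cells.

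Of the 8 polymerase and primase genes 7 rose, the exception being Pole, the catalytic subunit of polymerase epsilon (0.45 ± 0.20, adjusted p = 0.103). Pola1, the catalytic subunit of polymerase alpha, had 71.8, 62.9, 90.4 and 65.7 CPM in large cells, against 25.4, 25.6, 35.1 and 27.2 CPM in small cells. The groups stood well apart, with a log2 difference of 1.41 ± 0.18 (adjusted p = 1.93e-09).

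Pcna had 470, 503, 493 and 484 CPM in large cells, against 297, 260, 279 and 332 CPM in small cells, with no overlap. Its log2 difference of 0.80 ± 0.07 (adjusted p = 3.01e-16) had one of the smallest errors among the members, as the gene with most counts. With Pcna, 7 of 8 genes of the clamp, its loader and single-strand binding rose, and Rfc3 did not pass the test (0.38 ± 0.17, adjusted p = 0.107). Lig1, the ligase that seals the lagging strand, had 160, 155, 160 and 176 CPM in large cells, against 69.5, 58.1, 67.5 and 88.9 CPM in small cells. The plates were nearly level within each group, and the log2 difference was 1.26 ± 0.12 (adjusted p = 1.46e-13). Fen1, which trims the flap before joining, rose by 0.96 ± 0.16 (adjusted p = 1.84e-06).

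All 5 genes of nucleotide supply rose. Tk1, which salvages thymidine, had the highest log2 difference of the members, with 87.5, 103, 74.5 and 90.7 CPM in large cells, against 33.9, 22.2, 29.7 and 36.3 CPM in small cells (1.58 ± 0.18, adjusted p = 1.61e-11). Tyms, thymidylate synthase, had 82.0, 97.0, 71.2 and 63.6 CPM in large cells, against 22, 23.9, 35.1 and 32.7 CPM in small cells (1.49 ± 0.18, adjusted p = 7.3e-10). Rrm2 had 78.3, 111, 98.0 and 89.6 CPM in large cells, against 42.4, 59.8, 43.2 and 54.4 CPM in small cells (0.98 ± 0.15, adjusted p = 3.49e-07). None of these genes had overlapping groups. The chromatin genes moved less. Slbp rose by 0.58 ± 0.12 (adjusted p = 0.00022) and Chaf1a by 0.74 ± 0.25 (adjusted p = 0.0266), and Chaf1b did not pass the test (0.21 ± 0.16, adjusted p = 0.426).

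**Figure D1:**
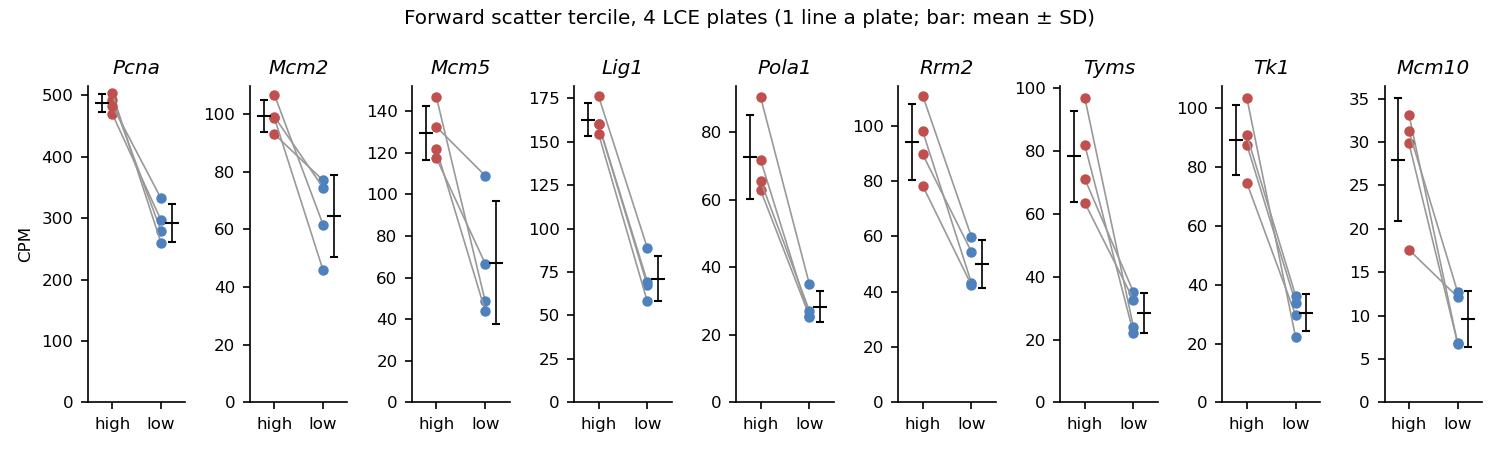
CPM of 9 replication genes in the highest and lowest tercile of cells by forward scatter, 1 point and line per LCE plate, large cells left of small cells, with bars for the mean ± SD. In each of the 9 genes the 4 points of large cells lie above the 4 points of small cells.

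The other cell-cycle lists moved with the members in large cells. Of other replication genes 19 of 35 tested rose, with log2 differences of 1.56 for Asf1b, a histone chaperone, and 1.18 for Gmnn, the inhibitor of Cdt1. Of G1/S regulators 9 of 13 rose, with 2.04 for E2f8 and 1.65 for Ccne2. Of G2 and mitosis genes 24 of 25 rose, with a median of 1.49 and 2.75 for Kif20a. Members with and without an E2F word in the promoter had nearly the same median log2 difference, 0.94 (n = 11) and 0.91 (n = 22). Large cells also held more counts, with plate medians of 7782 to 10244.5 per cell, against 4632 to 6150.5 in small cells. When each cell was thinned to 3000 counts, 24 of the 33 members still testable rose, with a median of 0.79. B-lineage markers summed to 122 to 333 CPM in large cells and 240 to 372 CPM in small cells, and 33 members rose without cells of other lineages. DESeq2 called 21 members in place of 35. The counts of these alternative fits stand without the share of all genes called in them.

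The summed share of the members gave the same picture by level. It was 0.386% ± 0.00583 in large cells and 0.222% ± 0.0176 in small cells (SD, n = 4 plates). Across quintiles of forward scatter, from the smallest cells to the largest, it was 0.222%, 0.231%, 0.251%, 0.331% and 0.406%. The G2 and mitosis list ran 0.0731%, 0.0676%, 0.0689%, 0.0930% and 0.222% over the same quintiles. The replication share was thus already higher in quintile 4, whereas the mitosis share was high mainly in quintile 5.

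**Figure D2:**
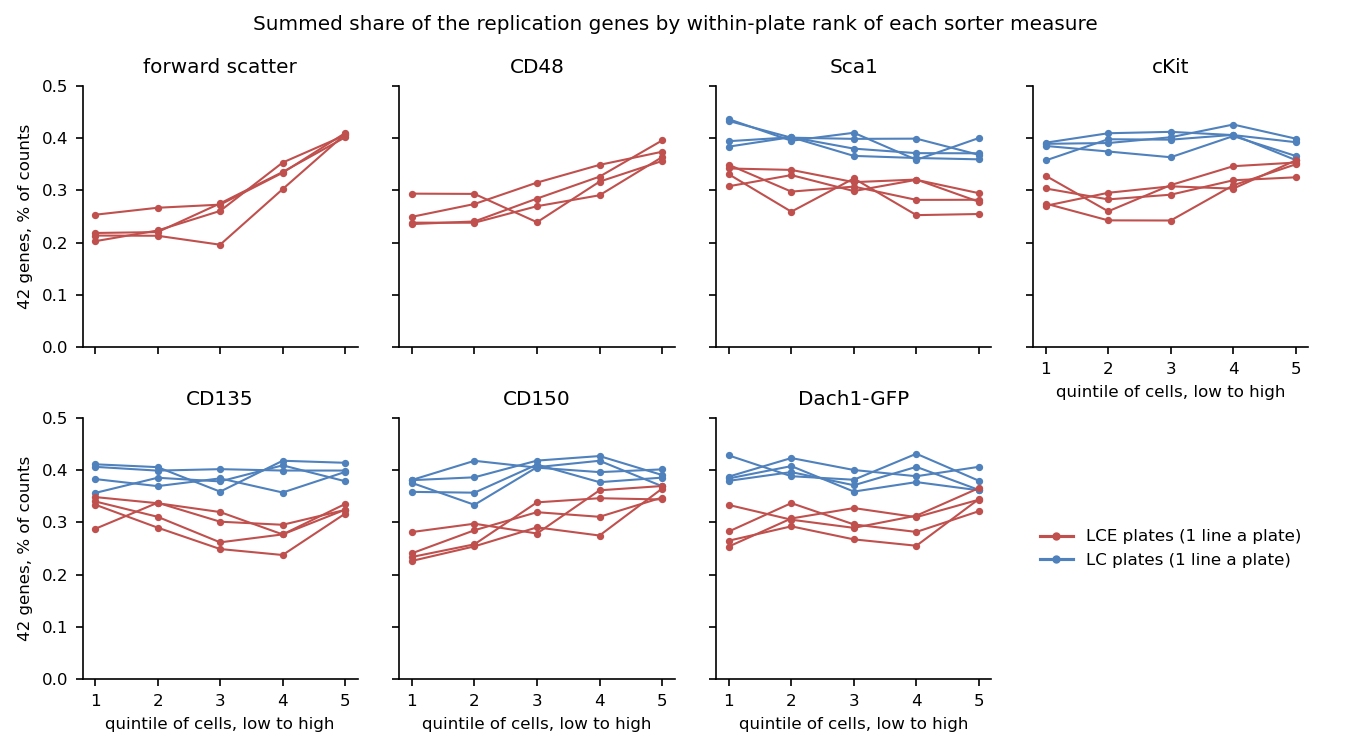
Summed share of counts on the 42 replication genes by quintile of each sorted measure, low to high, with 1 line per plate (LCE plates in red, LC plates in blue). The lines for forward scatter climb most, with means over the 4 plates of 0.222%, 0.231%, 0.251%, 0.331% and 0.406%.

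CD48, a surface protein that is low on blood stem cells and gained on many progenitors, gave the next largest set of calls. This order compares fits on unlike plates, since forward scatter and CD48 were fitted on the 4 LCE plates and other markers on all 8. On the LCE plates alone CD150 gave 18 of 40 members, with a median log2 difference of 0.47. In CD48-high cells 19 of 40 members were higher and none was lower, also at an unadjusted p under 0.05, while 7.01% of all genes were higher and 4.09% lower. The median log2 difference was 0.48, against -0.01 over all genes. All 19 had also risen with forward scatter, a comparison made on the same cells. They comprised 6 of 9 licensing genes, 4 of 5 nucleotide supply genes and both joining enzymes. In 13 of 42 members the groups did not overlap, again counted without a share over all genes.

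Cdc45, which joins the helicase at the fork, had 31.4, 28.7, 29.5 and 28.1 CPM in CD48-high cells of LCE407 to LCE410, against 8.16, 10.1, 17.1 and 12.3 CPM in CD48-low cells. The high group was tight and apart from the low group (1.30 ± 0.27, adjusted p = 0.000833), on 114 and 32 counts. Mcm10 had 28.5, 26.3, 19.7 and 33.8 CPM in CD48-high cells, against 18, 11.8, 8.56 and 15.8 CPM in CD48-low cells (1.04 ± 0.27, adjusted p = 0.00763). Mcm3, a subunit of the helicase ring, had 149, 146, 177 and 144 CPM, against 78.3, 89.4, 92.9 and 91.5 CPM (0.86 ± 0.12, adjusted p = 5.88e-07). None of these 3 genes had an overlap between groups. Without LCE410 Mcm10 did not pass (adjusted p = 0.0555).

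Dut, the enzyme that destroys dUTP, had 178, 152, 183 and 167 CPM in CD48-high cells, against 81.6, 105, 106 and 96.8 CPM in CD48-low cells (0.85 ± 0.11, adjusted p = 5.1e-07). Tk1 had 76.5, 80.1, 55.5 and 72.0 CPM in CD48-high cells, against 42.4, 33.7, 45.2 and 35.2 CPM in CD48-low cells (0.86 ± 0.18, adjusted p = 0.000562). Both were higher on every plate. Rrm2 was the nucleotide supply gene that did not pass (0.40 ± 0.17, adjusted p = 0.142). DESeq2 called 7 members, and with it Cdc45 (adjusted p = 0.0985), Mcm10 (0.316) and Tk1 (0.0659) did not pass. CD48-high cells held 1.5 times to 1.67 times the counts of CD48-low cells, by plate median. In thinned cells Tk1 (1.61), Dut (1.14) and Mcm3 (0.81) passed, and Cdc45 and Mcm10 were too low to be tested. B-lineage RNA was found in 28 CD48-high and 6 CD48-low cells, with B-lineage markers at a mean of 247 CPM and 124 CPM, and red cell markers stood at 114 CPM and 396 CPM in the same groups. Without cells of other lineages 19 members were called. These counts, too, stand without a share over all genes in the same fits.

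CD48 and forward scatter rose together, with Spearman correlations over cells of 0.326 to 0.534 within the 4 plates, so both were put in 1 fit on plates divided at the medians of the 2 measures. At matched forward scatter 4 of 37 members were higher in CD48-high cells, where 4.84% of all genes were called in either direction. These were Mcm3 (0.43 ± 0.10, adjusted p = 0.00298), Mcm2 (0.42 ± 0.13, adjusted p = 0.0431), Lig1 (0.42 ± 0.11, adjusted p = 0.00816) and Mcm7 (0.30 ± 0.08, adjusted p = 0.0205). In the same fit 29 of 37 members were higher in large cells at matched CD48, where 7.38% of all genes were higher. The median log2 difference was 0.21 for CD48 and 0.61 for forward scatter. The summed share was 0.374% in large CD48-high cells, 0.322% in large CD48-low cells, 0.243% in small CD48-high cells and 0.218% in small CD48-low cells. With 3 classes of forward scatter in place of 2, 1 member passed for CD48. With 1 plate left out, the calls for CD48 were lost without LCE410 for Mcm2 (adjusted p = 0.313), Lig1 (0.101) and Mcm7 (0.14). They were lost without LCE407 for Mcm2 (0.107) and Mcm7 (0.087), without LCE408 for Mcm2 (0.196) and Mcm7 (0.0738), and without LCE409 for Mcm3 (0.0526).

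cKit, the receptor for stem cell factor, was recorded on all 8 plates, as were the remaining markers. In cKit-high cells 2 of 41 members were higher and none was lower, with 1 lower at an unadjusted p under 0.05. Over all genes 1.92% were higher and 1.87% lower. The pair were enzymes of nucleotide supply. Rrm1, the large subunit of ribonucleotide reductase, ran from 106 over a median of 140 to 199 CPM across plates in cKit-high cells, against 80.0, 106 and 150 CPM in cKit-low cells. It was higher on 8 of 8 plates (0.41 ± 0.07, adjusted p = 4.32e-05). Tk1 ran from 63.6 over 78.2 to 92.7 CPM, against 40.0, 45.7 and 88.6 CPM, and was also higher on 8 of 8 plates (0.52 ± 0.11, adjusted p = 0.0013). The plate ranges overlapped for both genes because plates differed in level.

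Genes of mitosis behaved otherwise with cKit. In the same fit 23 of 25 G2 and mitosis genes were higher, with a median of 0.60 and 1.03 for Ube2c. The LC plates showed the contrast most plainly. There the replication share was 0.388% ± 0.0150 in cKit-high cells and 0.391% ± 0.0143 in cKit-low cells, while the mitosis share was 0.291% ± 0.0133 and 0.190% ± 0.00613 in the same groups (SD, n = 4 plates). On the LCE plates both shares were higher in cKit-high cells on 4 of 4 plates. There the replication share was 0.341% ± 0.00754 and 0.284% ± 0.0209, and the mitosis share 0.154% ± 0.0236 and 0.112% ± 0.0218. On LC plates alone 1 of 42 members was called higher (0.926% of all genes), and on LCE plates alone 10 of 40 (2.0% of all genes). Of the mitosis list 18 of 25 genes were called higher on LC plates and 8 of 24 on LCE plates.

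A test of the difference between the plate sets called 1 of 41 members for cKit (0.105% of all genes). This was Mcm3, with an LCE minus LC difference of 0.68 ± 0.13 (adjusted p = 0.00651). Mcm3 had 144, 155, 162 and 130 CPM in cKit-high cells of LCE407 to LCE410, against 101, 114, 108 and 100.1 CPM in cKit-low cells. On LC187 to LC190 it had 167, 204, 196 and 175 CPM in cKit-high cells, against 217, 205, 202 and 215 CPM in cKit-low cells. The gene was thus higher in cKit-high cells on every LCE plate and lower on every LC plate, although within the LC set the difference did not pass (-0.19, adjusted p = 0.354). The call was lost without plate LC187 (adjusted p = 0.0553), without LCE409 (adjusted p = 0.116) and in thinned cells (adjusted p = 0.369). At matched forward scatter none of 39 members was called for cKit (6 at an unadjusted p under 0.05, with 1.73% of all genes called). Without LCE410, Rrm2 was called lower there (-0.54, adjusted p = 0.0255).

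**Figure D3:**
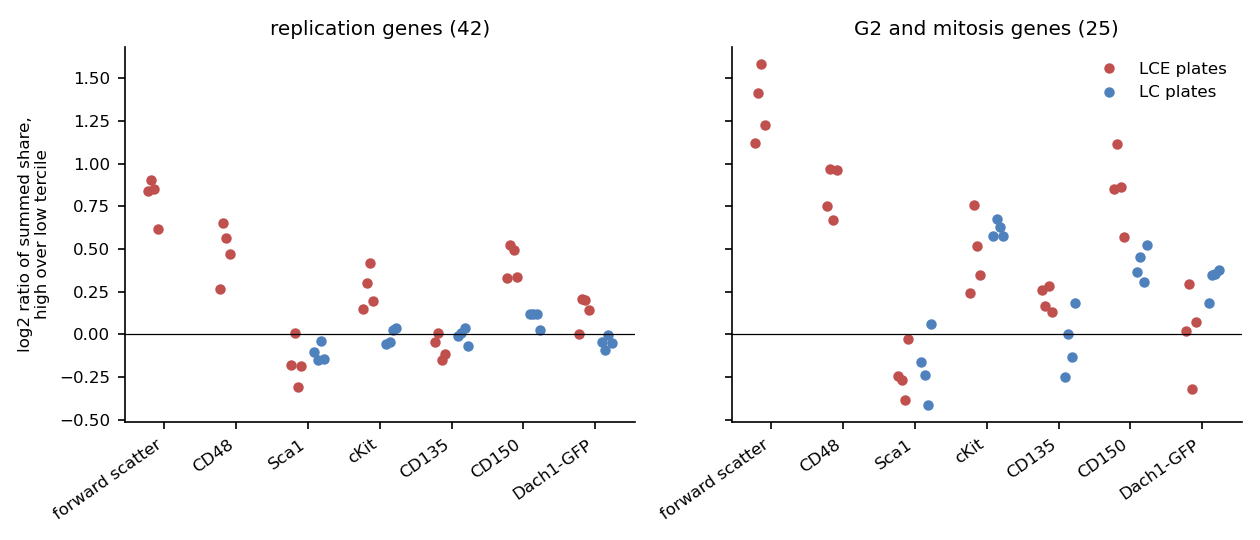
Log2 ratio of summed share between high and low cells for the replication members and for the G2 and mitosis list, 1 point per plate, LCE plates left of LC plates. For cKit on the LC plates the mitosis points lie near 0.62 and the replication points near 0.

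CD150, a surface marker of blood stem cells in the CD48-low compartment, gave 5 higher members of 41 and none lower, also at an unadjusted p under 0.05. Over all genes 1.49% were higher and 0.518% lower, and the members' median was 0.24. Tk1 ran from 65.9 over a median of 81.9 to 87.2 CPM in CD150-high cells, against 23.1, 40.1 and 70.7 CPM in CD150-low cells (0.83 ± 0.12, adjusted p = 5.85e-05). Rfc5, a subunit of the clamp loader, ran from 56.7 over 62.7 to 78 CPM, against 10.1, 44.9 and 54.4 CPM (0.60 ± 0.14, adjusted p = 0.0132). The 8 values of Rfc5 in CD150-high cells all lay above the 8 in CD150-low cells. The others were Rrm1 (0.43 ± 0.09, adjusted p = 0.00298), Lig1 (0.37 ± 0.10, adjusted p = 0.028) and Mcm3 (0.34 ± 0.08, adjusted p = 0.0168). Rrm1 and Mcm3 were higher on 8 of 8 plates and Lig1 on 7. Of the mitosis list 19 of 25 genes were higher. DESeq2 called 3, without Lig1 (adjusted p = 0.0886) and Mcm3 (0.0881). In thinned cells Tk1 alone of these 5 passed (1.04), and the log2 difference of Rfc5 was 0.03 (adjusted p = 0.979), so its separation was not seen at equal counts. CD150-high cells held 0.961 to 1.37 times the counts of CD150-low cells, by plate median. B-lineage RNA was found in 75 CD150-high and 18 CD150-low cells, and macrophage markers stood at a mean of 55.7 CPM and 19.2 CPM in the same groups. Without cells of other lineages 6 members were higher, these 5 among them. Lig1 did not pass without LC189, LCE407, LCE408, LCE409 or LCE410 (adjusted p 0.0575 to 0.126), nor Mcm3 without LCE407, LCE408 or LCE409 (0.0515 to 0.0763).

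The plate sets differed in this count. On LCE plates alone 18 of 40 members were higher with CD150 (3.56% of all genes), with a median of 0.47. On LC plates alone edgeR called none of 42 (6 at an unadjusted p under 0.05, with 0.559% of all genes higher), and the median was 0.09. The direct test of the difference called 1 of 41 members (0.671% of all genes) and placed 15 at an unadjusted p under 0.05, all larger on LCE plates. The called gene was Dut, with an LCE minus LC difference of 0.62 ± 0.15 (adjusted p = 0.0384). Dut had 150, 153, 144 and 153 CPM in CD150-high cells of LCE407 to LCE410, against 77.0, 106, 92.6 and 118 CPM in CD150-low cells. On LC187 to LC190 it had 183, 164, 176 and 144 CPM in CD150-high cells, against 206, 140, 163 and 157 CPM in CD150-low cells. All 4 LCE plates were higher in CD150-high cells, and the LC plates were divided. This call was lost without LC187, LC190, LCE407, LCE408 or LCE409 (adjusted p 0.0783 to 0.304) and in thinned cells (adjusted p = 0.16). At matched forward scatter 2 of 38 members were higher with CD150 (1.38% of all genes in either direction), Tk1 by 0.83 ± 0.15 (adjusted p = 0.000154) and Rpa3, the small subunit of Rpa, by 0.60 ± 0.16 (adjusted p = 0.0318). Rpa3 did not pass without LCE407, LCE408 or LCE410 (0.103 to 0.294).

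Sca1-high cells had lower values of some members. Of 41 members 7 were lower and none was higher, also at an unadjusted p under 0.05, while 6.15% of all genes were lower and 5.63% higher. The share of members lower, 7 of 41, was above that background, an excess that was not tested, and the median was only -0.13. Dut ran from 88.5 over a median of 126 to 165 CPM in Sca1-high cells, against 146, 162 and 224 CPM in Sca1-low cells, and was lower on 8 of 8 plates (-0.44 ± 0.07, adjusted p = 7.72e-06). Rfc5 ran from 41 over 49.1 to 57.8 CPM, against 53.9, 62.9 and 81 CPM, and was also lower on 8 of 8 plates (-0.37 ± 0.11, adjusted p = 0.0153). The remaining calls were smaller against their errors than that of Dut.

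These were Rpa3 (-0.49 ± 0.14, adjusted p = 0.0128), Rfc4 (-0.44 ± 0.14, adjusted p = 0.0342), Rrm2 (-0.30 ± 0.09, adjusted p = 0.0173), Mcm5 (-0.25 ± 0.08, adjusted p = 0.0195) and Mcm2 (-0.24 ± 0.08, adjusted p = 0.0463). Across plates Rpa3 ran from 18.5 over 34.8 to 60.1 CPM in Sca1-high cells, against 35.8, 51.9 and 68.9 CPM in Sca1-low cells. Rfc4, another clamp loader subunit, ran from 21.5 over 27.9 to 38.1 CPM, against 31.3, 38.0 and 47.7 CPM. Rrm2 ran from 54.8 over 88.4 to 161 CPM, against 56.3, 114 and 166 CPM. The ranges overlapped in each of these genes. The log2 difference of Rpa3 was -0.14 on LCE plates (adjusted p = 0.815) and -0.74 on LC plates (adjusted p = 0.00766), and that of Dut was -0.69 on LCE plates and -0.31 on LC plates. The direct test between the plate sets called neither gene (adjusted p = 0.682 for Rpa3 and 0.51 for Dut). Sca1-high cells held fewer counts on every plate (0.775 to 0.928 of the median of Sca1-low cells), and they included 10 cells with B-lineage RNA, against 74 among Sca1-low cells.

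Few of the Sca1 calls held under other treatments. In thinned cells 3 members were lower, and the differences of Rrm2 (-0.13, adjusted p = 0.743) and Rfc5 (-0.29, adjusted p = 0.489) did not pass. DESeq2 called 1, and without cells of other lineages Rrm2 no longer passed (-0.23, adjusted p = 0.103). With 1 plate left out, Rfc4 was lost without any of LC187, LC189, LC190, LCE407 or LCE409 (adjusted p 0.0696 to 0.111) and Rpa3 without LC187, LC188, LC189 or LCE410 (0.0571 to 0.0683). Rrm2 was lost without LC188, LC190 or LCE409 (0.0759 to 0.107) and Rfc5 without LC188 (0.118). At matched forward scatter 1 of 39 members was called (2.15% of all genes), again Dut (-0.48 ± 0.10, adjusted p = 0.00051). Between the plate sets none of 41 members differed (3 at an unadjusted p under 0.05, with 0.128% of all genes called).

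CD135, the receptor Flt3 of lymphoid-leaning progenitors, gave 4 lower members of 41 and none higher, with 2 higher at an unadjusted p under 0.05. Over all genes 5.11% were lower and 6.08% higher. Whether the share of members lower, 4 of 41, differs from that background was not tested, and it rests on few calls. The members' median was -0.01, and the summed share was 0.349% ± 0.0484 in CD135-high cells and 0.359% ± 0.0426 in CD135-low cells (SD, n = 8 plates). Rpa3 ran from 31.4 over a median of 44.6 to 47.6 CPM in CD135-high cells, against 37.7, 58.6 and 69.9 CPM in CD135-low cells (-0.45 ± 0.12, adjusted p = 0.00966). Chaf1a ran from 17 over 32.9 to 44.5 CPM, against 28.5, 36.8 and 61.4 CPM (-0.40 ± 0.13, adjusted p = 0.0435). Each was lower on 7 of 8 plates.

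The other 2 were enzymes of nucleotide supply. Rrm2 ran from 58.1 over 91.5 to 152 CPM in CD135-high cells, against 58.1, 116 and 196 CPM in CD135-low cells (-0.35 ± 0.08, adjusted p = 0.00221). Dut ran from 105 over 137 to 176 CPM, against 148, 164 and 231 CPM (-0.26 ± 0.07, adjusted p = 0.0092). In thinned cells none of the 4 passed, and the differences of Rrm2 and Dut were close to 0 (-0.08 and -0.07), while Rpa3 stood at -0.53 and Chaf1a at -0.31. CD135-high cells included 13 with B-lineage RNA, against 86 among CD135-low cells, and without cells of other lineages Chaf1a did not pass (-0.37, adjusted p = 0.0753). Chaf1a was also lost on leaving out any 1 plate other than LC188 (adjusted p 0.0633 to 0.147), and Rpa3 without LC188 (0.0587). At matched forward scatter 2 of 39 members were lower (3.54% of all genes in either direction), Tk1 by -0.50 ± 0.14 (adjusted p = 0.0151) and Dut by -0.40 ± 0.10 (adjusted p = 0.00488). Tk1 was lost there without LCE408, LCE409 or LCE410 (0.0543 to 0.16) and Dut without LCE408 or LCE410 (0.0646 to 0.0763). Between the plate sets none of 41 differed (5 at an unadjusted p under 0.05, with 0.672% of all genes called).

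Dach1-GFP, which reads out the Dach1 locus, hardly separated the members over all 8 plates. In GFP-high cells 1 of 41 members was higher and 1 lower, while 3.98% of all genes were higher and 3.86% lower, so both shares lay below the background. The summed share was 0.355% ± 0.0366 in GFP-high cells and 0.347% ± 0.0578 in GFP-low cells (SD, n = 8 plates). By plate set it went opposite ways, which was not tested for the sum. On LCE plates it was 0.325% ± 0.0199 and 0.295% ± 0.0186, higher in GFP-high cells on 4 of 4 plates (log2 ratio 0.001 to 0.21). On LC plates it was 0.386% ± 0.0160 and 0.399% ± 0.0171, lower in GFP-high cells on every plate (SD, n = 4 plates). Tyms ran from 60.7 over a median of 78.4 to 116 CPM in GFP-high cells, against 41.2, 57.3 and 87.5 CPM in GFP-low cells, and was higher on 7 of 8 plates (0.35 ± 0.10, adjusted p = 0.0141). Rrm2 ran from 55.8 over 92.2 to 151 CPM, against 76.6, 105 and 173 CPM, and was lower on 7 of 8 plates (-0.28 ± 0.08, adjusted p = 0.0161).

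The call for Rrm2 moved with cells of another lineage. Cells with B-lineage RNA numbered 6 in the GFP-high and 106 in the GFP-low groups, where B-lineage markers summed to 21 to 148 CPM and 28.5 to 781 CPM. Without cells of other lineages the difference for Rrm2 was -0.09 (adjusted p = 0.669), while Tyms was higher by 0.45 (adjusted p = 0.0032). In thinned cells neither Tyms (0.33) nor Rrm2 (-0.17) passed, and with DESeq2 neither passed. Tyms did not pass without LC189, LC190 or LCE409 (adjusted p 0.0592 to 0.0922), nor Rrm2 without LC188 (0.0993). At matched forward scatter none of 39 members was called (2 at an unadjusted p under 0.05, with 4.32% of all genes called). Between the plate sets none of 41 differed (11 at an unadjusted p under 0.05, with 0.126% of all genes called).

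**Figure D4:**
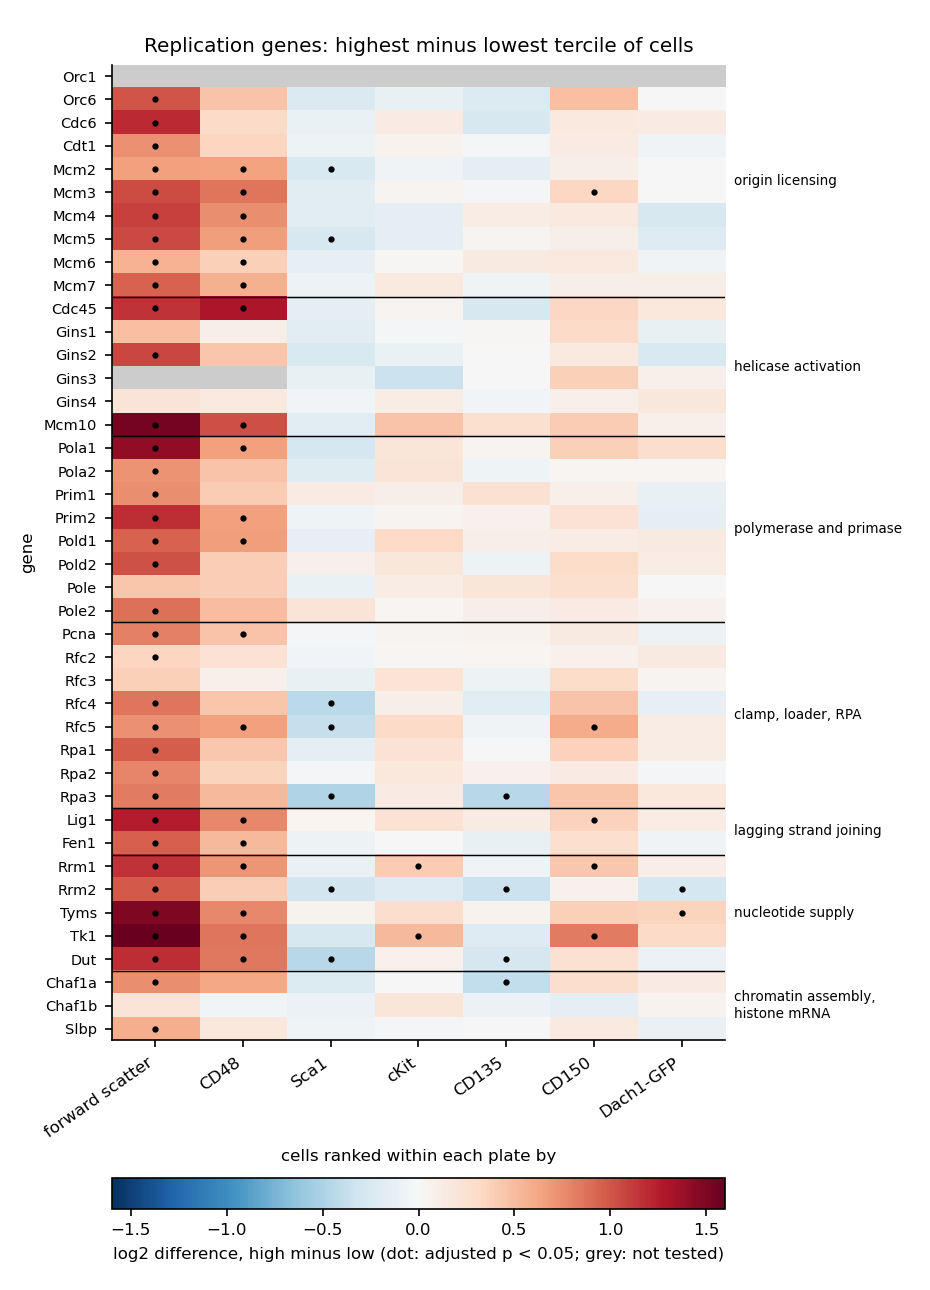
Log2 difference between high and low cells for each of the 42 members, by role in rows, and for the 7 sorted measures in columns, with a dot where the adjusted p is under 0.05 and grey where a gene was not tested. The columns of forward scatter (35 called) and CD48 (19 called) are the ones filled with positive values in nearly every row. Both rest on the LCE plates alone, and the other columns on all 8 plates.

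Cells of the LCE plates were also placed in gates by the plate medians of CD135, CD48 and CD150. The gate that is CD135-low, CD48-low and CD150-high is the one in which blood stem cells are known to be most frequent, and it held 37 to 49 cells per plate. Against the mean of the other 4 gates none of 37 members tested was called there (5 at an unadjusted p under 0.05, with 1.27% of all genes called). The smallest p-values belonged to Rfc4 (0.81 ± 0.29, adjusted p = 0.2), Slbp (0.36 ± 0.15, adjusted p = 0.335) and Mcm7 (-0.28 ± 0.12, adjusted p = 0.414). Rfc4 had 27.4, 72.2, 67.0 and 30.8 CPM in this gate on LCE407 to LCE410, and 25, 35.7, 28.5 and 32.2 CPM in CD135-high cells, so its groups overlapped.

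The summed share in the stem cell gate was 0.301% ± 0.0249 (SD, n = 4 plates). It was 0.371% ± 0.0311 in CD48-high CD150-high cells, 0.328% ± 0.00573 in CD48-high CD150-low cells, 0.294% ± 0.0186 in CD135-high cells and 0.245% ± 0.0276 in CD48-low CD150-low cells. The gates differed in size in a similar order, with median forward scatter percentiles of 39.7 in the stem cell gate and, for the other 4 as listed, 69.0, 56.2, 53.5 and 33.7. What part size had in these shares was not tested.

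The members rose and fell together from cell to cell. For each member, the cells of a plate were ranked by the summed share of the other 41, and the upper and lower terciles were compared as a description without a test, on log2(CPM + 1). The log2 ratio was positive for all 42 members, and 41 were higher on all 8 plates. The exception was Gins4, a GINS subunit, at 0.26 and 6 of 8 plates. The number higher on all 8 plates was counted without a share over all genes. The median ratio was 1.14 and the highest was 1.88 for Cdc45, followed by Cdc6 at 1.81 and Orc1 at 1.75. Orc1 and Gins3, too low for the forward scatter test, thus followed the rest here (Gins3 at 0.94). Cells of the upper tercile by all 42 members sat at the 75.1 percentile of forward scatter, against 37.5 for the lower tercile. They also held more counts, at the 71.2 and 33.0 percentile in the same order, so depth moved with this ranking.

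The cells were also ranked by the 25 G2 and mitosis genes, again without a test. The median ratio was 0.27, and 12 members were higher on all 8 plates, again counted without a share over all genes. All 5 genes of nucleotide supply were among these 12, with a median of 0.86 and the highest value for Tk1, at 1.31, and the lowest for Dut, at 0.63. The other 7 were spread over the remaining roles, and Cdc45 (0.81), Mcm10 (0.80) and Rfc5 (0.72) lay above Dut. The 10 licensing genes had a median of 0.09. Orc6, another subunit of the origin recognition complex, was the licensing gene higher on every plate (0.30), and Mcm2 stood at -0.24 with 92.0 CPM in mitosis-high cells and 111 CPM in mitosis-low cells. Mcm6 stood at -0.14. Cells in the upper tercile by member share spent 0.165% ± 0.0345 of their counts on the mitosis list, and those in the lower tercile 0.189% ± 0.0811 (SD, n = 8 plates). Cell by cell the order was the other way, with the median cell at the 59.4 percentile of mitosis share in the upper tercile and at the 46.3 percentile in the lower tercile, higher on 8 of 8 plates.

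**Figure D5:**
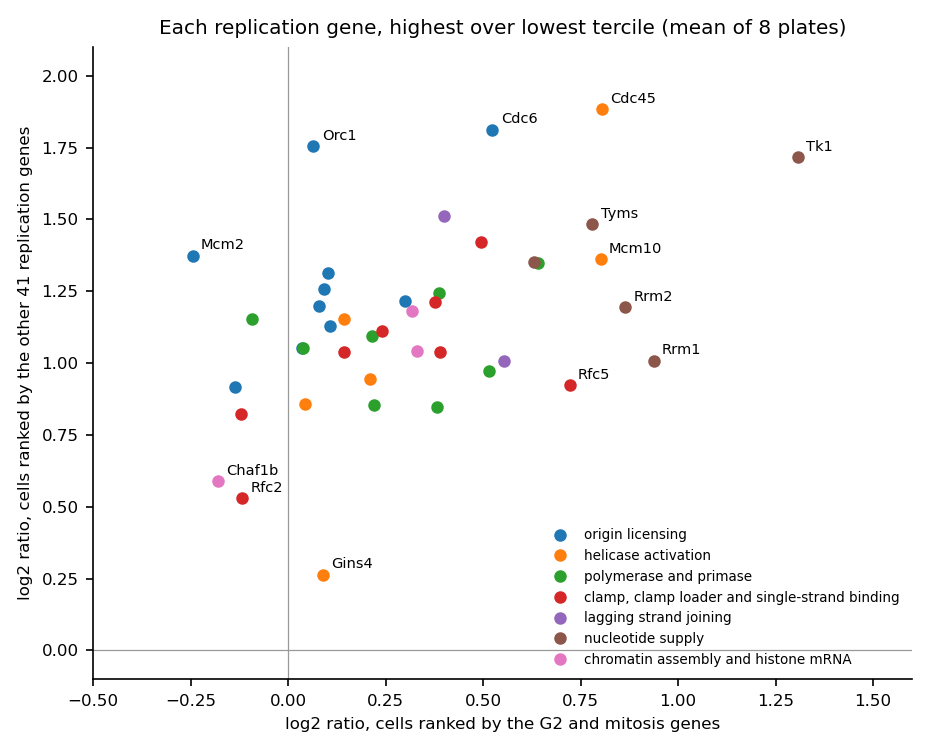
Each member's log2 ratio between upper and lower terciles of cells ranked by the G2 and mitosis list (horizontal axis) and by the other members (vertical axis), as means over 8 plates. Nucleotide supply genes (brown) lie to the right, with a median of 0.86, and most licensing genes (blue) lie near 0 on the horizontal axis, with a median of 0.09.

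Genes outside the list were ranked by the same measure, the mean log2 ratio over 8 plates between the upper and lower tercile of cells by member share, among 7157 genes of at least 20 CPM. Their median was -0.01, and 77 exceeded 1. The 10 most alike were Ung (2.01), Pcna-ps2 (1.99), Kntc1 (1.89), Uhrf1 (1.83), Pclaf (1.65), Car1 (1.51), Brip1 (1.5), Cenpk (1.49), Hist1h2ai (1.47) and Hist1h2af (1.47). Ung removes uracil from DNA, Uhrf1 maintains DNA methylation behind the fork, Pclaf binds Pcna, and the last 2 are histone H2A genes with near-identical copies, so that their counts are uncertain. In thinned cells the ratio of Car1, a carbonic anhydrase, was 0.77, and those of Ung, Uhrf1 and Pclaf were 2.02, 1.80 and 1.68. Ung had 65.0 CPM in the upper tercile and 15.6 CPM in the lower tercile.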

How the data were processed

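CEL-seq2 counts of 383 wells on each of 8 plates were used with the index-sort record of each well. The authors deposited whole-number counts per gene and well, and sort values as linear fluorescence or scatter intensity, per the file headers. The submitters' processing notes name GRCh38, a human build, although all gene identifiers are mouse Ensembl identifiers. The sources used here do not give the aligner, the counter, the use of strand or how molecular tags were treated. Symbols matched 27249 of 27318 identifiers. Records were joined by barcode or well, and 20 LCE records carried the barcode of another well and were joined by it. Wells with at least 1000 counts, at least 500 genes and under 20% mitochondrial counts were kept (2720 of 2996 wells with a record; 337 to 342 per plate). Plate totals were 2104359 to 5192543 counts, which limits genes of a few CPM. Each well got 1 cell and no doublet caller was run.

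Within a plate, cells were ranked by each sort value, and counts were summed over the highest and lowest terciles. These sums were fitted over all genes with edgeR 4.0.16 in R 4.3.3 (filterByExpr, TMM, glmQLFit, glmQLFTest) with plate as a block, Benjamini-Hochberg adjustment and a threshold of 0.05. Further fits divided plates by marker and forward scatter, by gate, or by marker and plate set. The alternatives were DESeq2 1.42.0, DESeq2 size factors, no filter, quartiles, a division at the median, no plate block, cells thinned to 3000 counts, no cells of other lineages, and each plate left out. The script was tested on simulated counts. Ranks and sums were made in Python 3.11.15. The members, gene lists and comparisons were chosen with earlier results of these data known. The rule for genes given with values took, per comparison, up to 5 called members with the largest positive and up to 5 with the largest negative log2 difference (with none called, the 3 of smallest p), plus Pcna, Mcm2, Mcm5, Rrm2 and Tyms for forward scatter, up to 3 called genes of each other list, and the 10 genes most like the members.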

Additional observations from a re-analysis of the deposited data

Results flagged for a closer look

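In 34 sets of plate values for genes with calls, 4 held a plate far from the others, and chance alone flags about 1 set in 20. The sets share plates and genes, and whether 4 is more than chance gives was not tested. For Tk1, the log2 ratio of large over small cells was 2.17 on plate LCE408 and 1.30 to 1.34 on the other 3. For Mcm10, the ratio of CD48-high over CD48-low cells was 0.64 on LCE407 and 1.05 to 1.11 on the other 3. For Chaf1a, the ratio of CD135-high over CD135-low cells was 0.28 on LC188 and -0.71 to -0.40 on the other 7. For Rfc5, the ratio of CD150-high over CD150-low cells was 2.56 on LCE408 and 0.13 to 0.99 on the other 7.

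Plate sets differed in the direct test for a pair of genes. For Mcm3 with cKit, the LCE minus LC difference in log2 was 0.68, from 0.49 on LCE plates and -0.19 on LC plates. For Dut with CD150, it was 0.62, from 0.63 on LCE plates and -0.00089 on LC plates. The plate sets differ in depth as well as in name, and the part of depth in these values was not tested beyond the thinned fits, in which both were as large or larger (0.74 and 0.82) but did not pass.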

How the results depend on the processing

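The summed share per well was 0.299% in wells of at least 3000 counts and 0.296% in thinned wells. Random thinning leaves the expected share of a well unchanged, and the filter removed 40 of 2720 wells. These values therefore cannot show whether depth affects the share. Members called changed by more than 1.5 times as follows, while the counts with a plate left out include smaller changes. DESeq2 called 21 for forward scatter (main 35), 7 for CD48 (19), 1 for Sca1 (7), 1 for CD135 (4), 3 for CD150 (5) and 0 for Dach1-GFP (2). Without the plate block, 11 were called for CD48 and 0 for Sca1, cKit, CD135, CD150 and Dach1-GFP. Thinned cells gave 3 for Sca1, 0 for CD135, 1 for CD150 and 0 for Dach1-GFP. Quartiles gave 4 for Sca1, 4 for cKit (2), 3 for CD150 and 0 for Dach1-GFP, and a division at the median gave 5 for cKit and 1 for Dach1-GFP. Without cells of other lineages 4 were called for cKit. LC plates alone gave 2 for Sca1, 1 for cKit, 0 for CD150 and 1 for Dach1-GFP, and LCE plates alone gave 2 for Sca1, 10 for cKit, 1 for CD135 and 18 for CD150. Ranks corrected for forward and side scatter on LCE plates gave 8 for CD48, 1 for Sca1 and 1 for cKit (Rrm2, lower). With 3 classes of forward scatter, 1 was called for CD48 (4) and 1 for CD150 (2) at matched scatter. Leaving out each plate gave 31 to 34 for forward scatter, 15 to 24 for CD48, 2 to 6 for Sca1, 2 to 5 for cKit, 3 for CD135, 3 to 8 for CD150 and 1 to 3 for Dach1-GFP. At matched scatter it gave 1 to 4 for CD48, 0 to 1 for cKit, 0 to 2 for CD135 and 1 to 2 for CD150, and the stem cell gate kept 0. Alternatives for the difference between plate sets were chosen after seeing the data. For cKit (1) they gave 0 in thinned cells, 2 without other lineages and 0 to 2 with a plate left out. For CD150 (1) they gave 0, 3 and 0 to 1, and for Dach1-GFP (0) they gave 0 to 1 (Cdt1 without LC189). The LCE minus LC difference of Tk1 for Dach1-GFP turned to -0.079 in thinned cells. Among single named genes, 423 values kept their call, 163 lost it, 152 stayed without one, 2 gained it and 1 turned sign. High and low cells of a plate are paired through the plate block, while replicate numbers are not shared between the plate sets and pair no plates. The cause of these changes was not tested. Apart from the single plate sets, the counts stand without the share of all genes called in the same fits. A general loss of calls was thus not told apart from a loss among the members.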

Other observations

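Genes lowest in cells rich in replication RNA were looked up after their values were seen. Cd74, the invariant chain of antigen presentation, had 30.2 CPM in the upper tercile by member share and 140 CPM in the lower tercile (mean log2 ratio -2.27, n = 8 plates). The immunoglobulin gene Igkc stood at -1.80, and the class II genes H2-Eb1 and H2-Aa at -1.67 and -1.62. All 4 were lower on every plate. The mitosis genes Aspm and Ube2c, at -1.24 and -1.20, were also among the 10 lowest and were lower on 7 of 8 plates.

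On the LC plates 7 of 25 G2 and mitosis genes were higher in GFP-high cells and none was lower (4.07% of all genes called in either direction). There the mitosis share was 0.276% ± 0.0121 in GFP-high cells and 0.222% ± 0.0128 in GFP-low cells (SD, n = 4 plates). The replication share was 0.386% ± 0.0160 and 0.399% ± 0.0171 in the same groups. On the LCE plates none of 24 mitosis genes was called (5.96% of all genes in either direction). There the mitosis share was 0.129% ± 0.0311 in GFP-high cells and 0.125% ± 0.0164 in GFP-low cells. The replication share was 0.325% ± 0.0199 and 0.295% ± 0.0186 in these LCE groups.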
